A study of Saccharina japonica with 9 samples.

Results

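Male and female gametophytes of the kelp *Saccharina japonica* were compared by the cytosines that whole-genome bisulfite sequencing listed as methylated (mCs). The comparison holds 6 of the 9 libraries of the series, 3 from male gametophytes (MG) and 3 from female gametophytes (FG), chosen by the developmental stage in their labels. All 6 came from whole gametophytes of strain Ye-c12 at 2 months, and the labels name no treatment. The methods state that the gametophytes of both sexes came from the blade of a single sporophyte and were multiplied by cloning, so the replicates of a sex may be clones. The labels do not say whether replicates were separate cultures, and the p-values measure the spread between these libraries, which may be technical. The labelled sex could not be checked against sex-determining genes, because genes were not placed on the scaffolds here.

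Kelps alternate between a large diploid sporophyte and a microscopic haploid gametophyte that is either male or female. Sex in brown algae follows a UV system. Males carry a V and females a U sex chromosome, each with a region that does not recombine with its counterpart and holds genes found in that sex alone, while the remainder of the chromosome is shared. Cytosine methylation is read by bisulfite treatment, which turns unmethylated cytosines into bases read as thymine, and mCs are sorted by context into CpG, CHG and CHH, where H stands for A, C or T. Only nuclear scaffolds are described, under the scaffold names of the study's assembly.

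The FG libraries held 4493644, 3443506 and 5803035 nuclear mCs in replicates 1 to 3, with 4661145, 3549494 and 6412845 methylated reads. The MG libraries held 5043993, 5263792 and 6255023 mCs, with 5229482, 5453612 and 6562515 methylated reads. In both sexes replicate 3 was the library with the most mCs, and its mean coverage, the number of reads over a listed mC, was 11.3 in FG and 12.2 in MG against 9.46 to 10.2 in the other 4 libraries. The lists hold only cytosines that passed the authors' test. Fewer methylated cytosines, fewer covered cytosines and fewer copies of a sequence therefore cannot be told apart in the counts below. Most mCs rest on 1 methylated read. The paper warns that sequencing errors can weigh on results at low methylation, and such errors were not tested for here.

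The largest differences between the sexes lay on scaffolds that carried methylated reads in every MG library and next to none in FG. On scaffold3067, which is at least 24.6 kb long, MG replicates 1 to 3 had 188, 182 and 227 methylated reads and each FG library had 0. The MG share was at least 169-fold higher when FG was set to a floor of 3 reads over its 3 libraries. On scaffold2418 (39.2 kb) the MG libraries had 485, 455 and 590 reads and the FG libraries 2, 1 and 2, a log2 ratio of MG to FG of 7.92 (standard error 0.180, adjusted p = 1.22e-09 from edgeR's quasi-likelihood test). The FG libraries lay far below every MG library on both scaffolds.

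Longer scaffolds gave the same picture. Scaffold1689 (89.1 kb) held 1036, 1042 and 1268 reads in MG and 5, 5 and 14 in FG, a log2 ratio of 6.88 (standard error 0.163, adjusted p = 1.41e-09 from edgeR). Scaffold1552 (103 kb) held 1000, 1026 and 1197 reads in MG and 14, 19 and 13 in FG, a log2 ratio of 5.84 (standard error 0.222, adjusted p = 2.59e-08 from edgeR). Scaled to a nuclear total of 1000000 methylated reads (RPM), scaffold1552 stood at 191, 188 and 182 in MG and at 3.004, 5.35 and 2.03 in FG. The spread among the libraries of one sex was small against the distance between the sexes.

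**Figure D1:**
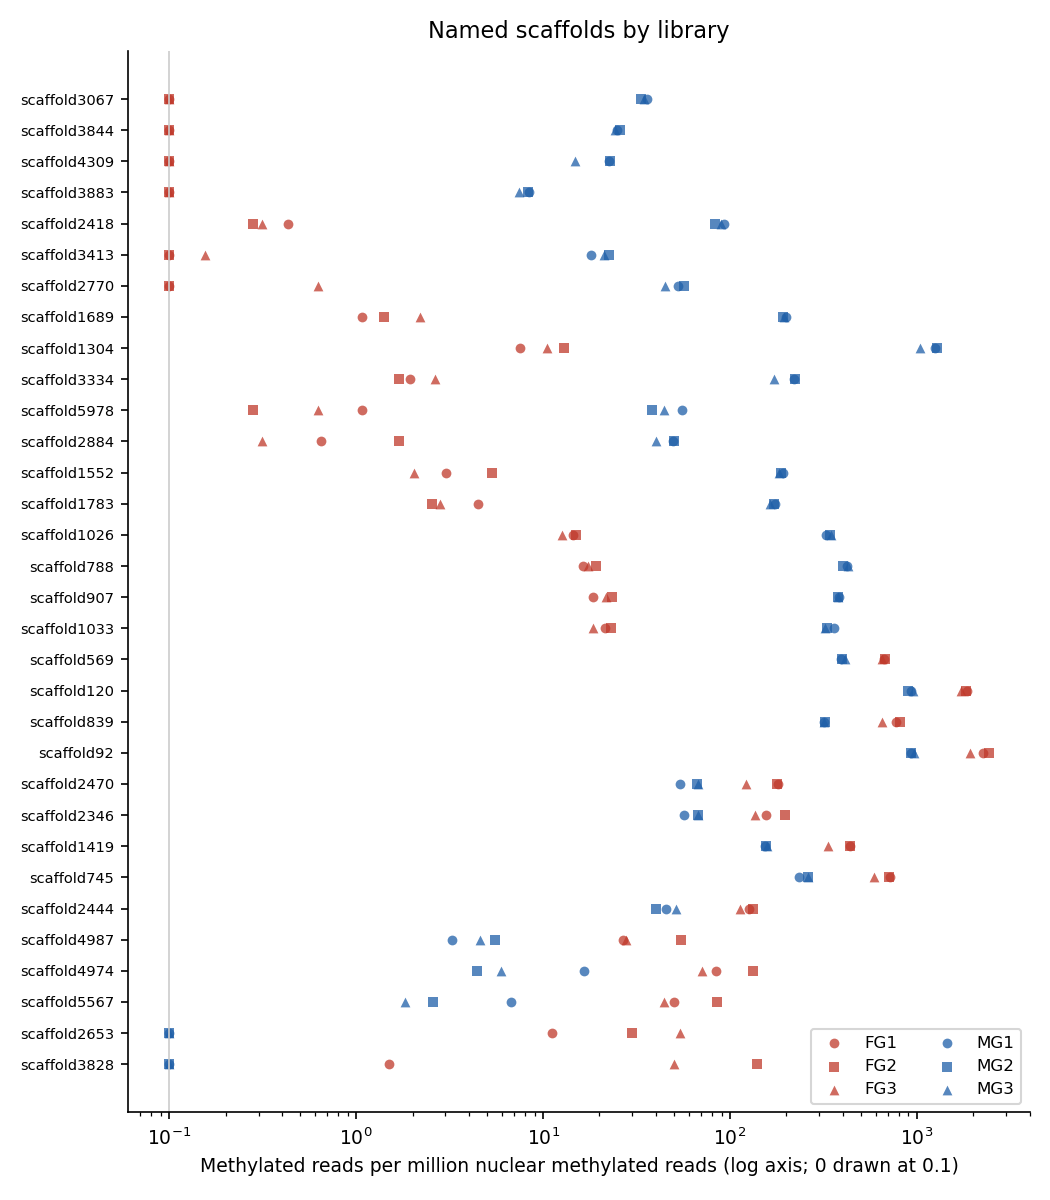
Methylated reads scaled to a nuclear total of 1000000 (RPM) in each of the 6 libraries (x axis, logarithmic, with 0 drawn at 0.1) for the 32 named scaffolds with an adjusted p below 0.05 (y axis), ordered by the fitted log2 ratio of MG to FG. FG libraries are red and MG libraries blue, and in each of these scaffolds the libraries of the sexes do not overlap.

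On 4 male-rich scaffolds FG reads were spread unevenly over bins of 10 kb. Scaffold1026 (168 kb) held 1704, 1857 and 2283 reads in MG and 67, 53 and 81 in FG, a log2 ratio of 4.60 (standard error 0.0882, adjusted p = 3.63e-10 from edgeR). In FG, 186 of its 201 reads came from bin 14 (positions 130001 to 140000), where the FG libraries held 66, 46 and 74 reads and the MG libraries 140, 211 and 171. In FG 11 of its 17 bins had 0 reads in every library, while in MG every bin had reads. The coverage at bin 14 was 22.6, 23.8 and 25.6 reads in FG, against 18.04, 16.8 and 21.1 in MG, higher than the scaffold's mean in MG of 8.82, 9.02 and 11.1. On scaffold788 (209 kb), with 2215, 2183 and 2818 reads in MG and 76, 68 and 111 in FG, 11 of 21 bins were without an FG read. On scaffold907 (186 kb), with 1995, 2069 and 2477 reads in MG and 86, 83 and 139 in FG, 11 of 19 bins were without an FG read and bin 3 held 58.1% of the FG reads. On scaffold1033 (167 kb), with 1881, 1791 and 2117 reads in MG and 100, 82 and 119 in FG, 6 of 17 bins were without an FG read and bin 16 held 38.9% of the FG reads. Each of the 4 scaffolds had FG reads in some bins and none in others, to a different degree.

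Scaffold1304 (128 kb) held the most methylated reads of the male-rich scaffolds named here. The MG libraries had 6556, 6969 and 6822 reads and the FG libraries 35, 46 and 67, a log2 ratio of 6.86 (standard error 0.164, adjusted p = 1.41e-09 from edgeR). Most of the MG reads came from its distal part, which was set apart after the profile had been seen. In bins 8 to 12 (positions 70001 to 120000) the MG libraries held 4885, 5278 and 4970 reads at a mean coverage of 63.7, 67.6 and 77.9 reads, and each FG library held 0. In bins 1 to 5 the MG libraries held 532, 547 and 673 reads at a coverage of 8.80, 8.31 and 11.02, near the mean of their library, and FG held 26, 38 and 50. The MG reads of the scaffold therefore come from a stretch at ordinary depth and a stretch several times as deep.

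**Figure D2:**
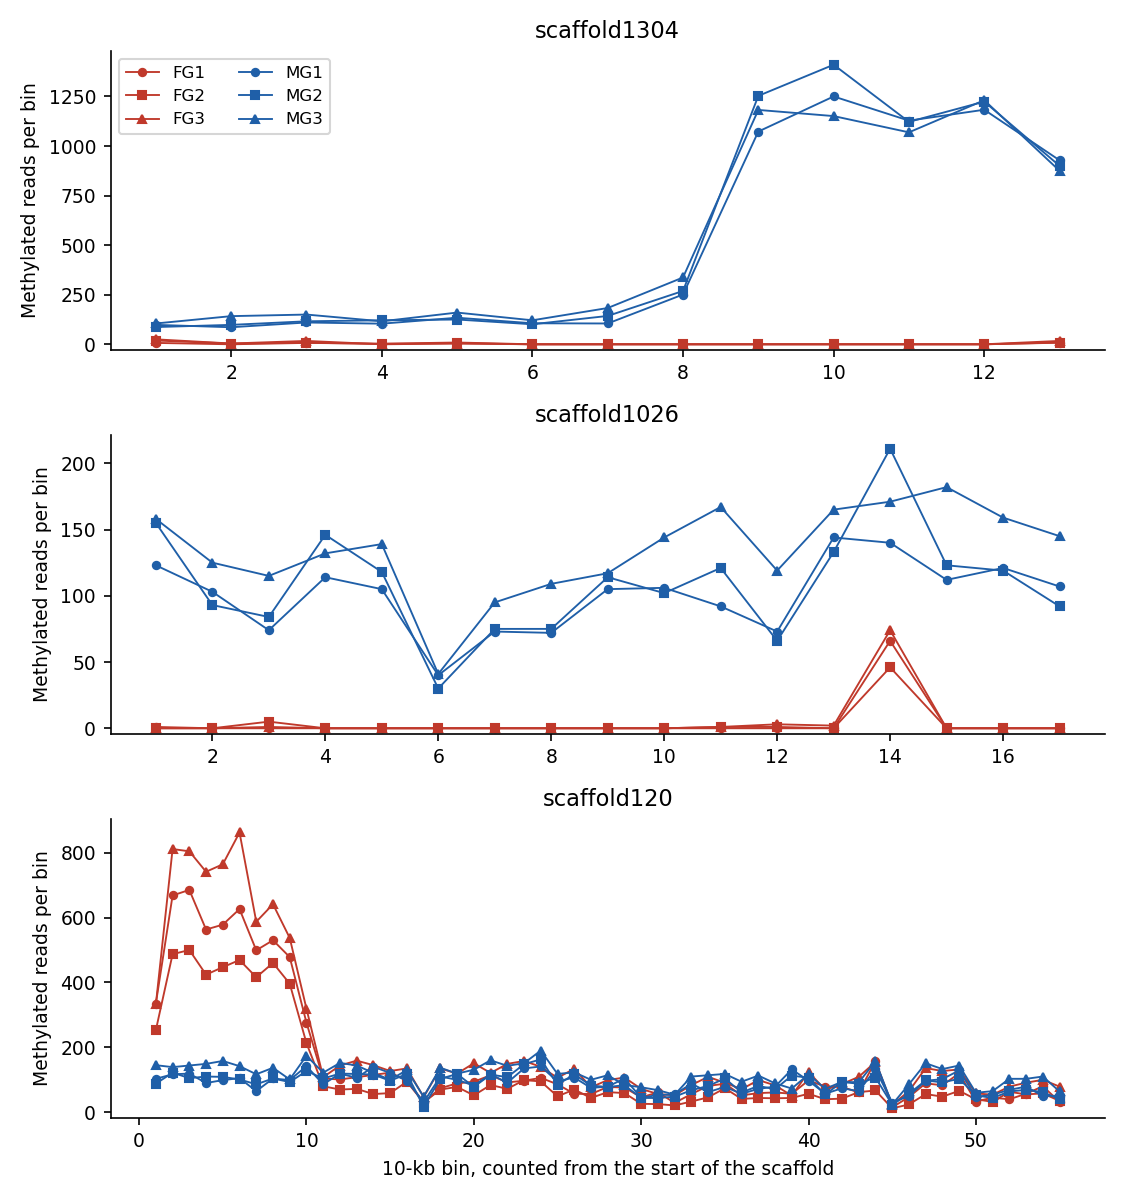
Methylated reads per 10-kb bin (y axis) along scaffold1304, scaffold1026 and scaffold120 (x axis, bins counted from the start of the scaffold), with 1 line per library, FG red and MG blue. FG stays at or near 0 over scaffold1304 and, outside bin 14, over scaffold1026, while on scaffold120 the FG lines lie above MG in bins 1 to 10 and overlap MG, relative to the nuclear totals, in 41 of the 45 remaining bins.

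Over the whole nuclear genome, 8750 scaffolds, each with 10 methylated reads or more in the 6 libraries combined, were tested for reads relative to the nuclear total. At an adjusted p below 0.05 from edgeR, 624 scaffolds (7.13%) were higher and 332 (3.79%) lower in MG. With the mapped reads as library size the median log2 ratio moved by 0.16 from near 0 and the counts were 690 and 193, so the share of higher calls was 78.1% against 65.3%. Replicate 3 of both sexes deviated together in reads per scaffold, while replicates 1 and 2 could not be paired by number. With the replicate number as a block 764 scaffolds (8.73%) were higher and 508 (5.81%) lower, among them all of the 624 and all of the 332. Of the 624 scaffolds higher in MG, all were without overlap between the libraries, and of the 332 lower, 329 were. Over all tested scaffolds 13.6% were without overlap with MG higher and 9.91% with MG lower.

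The male-rich and the female-rich scaffolds differed in the size of their change. In MG 250 scaffolds, with a summed length of 6.84 Mb, were higher by a log2 ratio of 2 or more, and 93 of them held no FG read, so that their fitted ratio depends on the prior count of the fit. Only 24 scaffolds, with a summed length of 0.122 Mb, were lower in MG by a log2 ratio beyond -2. Within smaller changes the lengths were alike, 43.0 Mb in 264 scaffolds for a rise below 1 and 36.0 Mb in 258 scaffolds for a fall above -1. Lengths are the highest listed position of each scaffold, so they are lower bounds.

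The 154 scaffolds with a log2 ratio above 4 held 44120, 45290 and 50703 methylated reads in MG and 1282, 991 and 1539 in FG. That was 0.844%, 0.830% and 0.773% of the nuclear methylated reads in MG and 0.0275%, 0.0279% and 0.0240% in FG. In MG these scaffolds carried 11.4, 11.7 and 12.9 mCs per kb, against 9.66, 10.1 and 11.98 over all tested scaffolds. Their mCs were 21.5%, 21.9% and 19.6% CpG in MG, against 23.4%, 23.1% and 19.9996% over all tested scaffolds. These scaffolds were selected by the ratio of MG to FG reads, so the values of both sexes, the FG coverage included, are a description only. In FG their remaining mCs were covered by 14.1, 14.3 and 16.6 reads, against 9.70, 9.46 and 11.3 over all tested scaffolds. They were short, with a median length of 1.81 kb, and the longest measured 343 kb.

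Female-rich scaffolds of the largest change were less even among replicates. Scaffold2653 (36.4 kb) held 52, 106 and 347 reads in FG replicates 1 to 3 and 0 in each MG library (log2 ratio -10.41, standard error 1.09, adjusted p = 0.000231 from edgeR). The FG share was at least 199-fold higher against the floor of 3 reads, or 111-fold without FG replicate 3. With only sites of at least 2 methylated reads the scaffold was not called (log2 ratio -5.23, adjusted p = 0.114 from edgeR). Scaffold3828 (14.5 kb) held 7, 492 and 321 reads in FG and 0 in each MG library (log2 ratio -11.38, standard error 2.27, adjusted p = 0.0114 from edgeR), at least 322-fold higher in FG, or 170-fold without FG replicate 2. Fitted ratios against 0 reads depend on the prior count. Both were absent from every MG list and varied several-fold between FG libraries, unlike the male-rich scaffolds named above in the MG libraries.

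Scaffold5567 (6.13 kb) was read in both sexes, with 235, 303 and 285 reads in FG and 35, 14 and 12 in MG (log2 ratio -4.04, standard error 0.416, adjusted p = 5.07e-05 from edgeR). The FG libraries covered its mCs with 22.7, 31.3 and 25.5 reads on average, and the MG libraries with 7.83, 6.86 and 6.42. Scaffold4974 (8.36 kb) held 390, 472 and 451 reads in FG and 86, 24 and 39 in MG (log2 ratio -3.43, standard error 0.416, adjusted p = 0.000181 from edgeR). Its mean coverage was 26.1, 33.3 and 30.7 reads in FG, whereas MG had 8.22, 6.88 and 7.08. From CpG mCs alone scaffold4974 was not called (log2 ratio -1.02, adjusted p = 0.31 from edgeR). On both scaffolds the depth of the mCs moved with the count.

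Scaffold120 (546 kb) had fewer methylated reads in MG in a stretch at its start. Over the whole scaffold FG held 8641, 6514 and 11015 reads and MG 4883, 4881 and 6278 (log2 ratio -0.96, standard error 0.0408, adjusted p = 7e-08 from edgeR). In bins 1 to 10, chosen after the profile had been seen, FG stood at 1124, 1145 and 998 RPM and MG at 199, 192 and 214, so the FG mean was 5.40 times that of MG. The mCs there were covered by 32.2, 29.3 and 41.9 reads on average in FG, whereas MG had 7.82, 7.76 and 10.1. In bins 11 to 55 FG stood at 730, 690 and 720 RPM and MG at 734, 703 and 742, with a coverage of 7.89, 7.38 and 9.34 in FG against 7.92, 7.998 and 10.2 in MG. The sexes overlapped over bins 11 to 55 as a whole. Bin by bin, every FG library lay above every MG library in all of the first 10 bins, and of the other 45 bins the libraries overlapped in 41, and in 4 the lowest MG library exceeded the highest FG library. From CpG mCs alone the scaffold was not called (log2 ratio -0.20, adjusted p = 0.0694 from edgeR). In the 6 libraries a CpG with 1 methylated read was listed only up to a coverage of 14 to 19 reads. The first bins were deeper than that in FG, and the part of this limit in the CpG result was not tested.

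On other female-rich scaffolds FG lay above MG in nearly every bin. On scaffold92 (590 kb) FG held 10572, 8597 and 12330 reads and MG 4848, 5053 and 6310 (log2 ratio -1.23, standard error 0.0700, adjusted p = 6.24e-07 from edgeR). In 59 of its 60 bins every FG library lay above every MG library relative to the nuclear totals, and the remaining bin held no FG read. FG covered its mCs by 11.8, 11.1 and 14.7 reads, whereas MG had 7.996, 8.16 and 10.5. Scaffold839 (201 kb) had 3582, 2876 and 4184 reads in FG and 1664, 1752 and 2084 in MG (log2 ratio -1.22, standard error 0.0715, adjusted p = 7.97e-07 from edgeR). Scaffold745 (222 kb), which the study placed on chromosome 29, had 3331, 2530 and 3755 reads in FG and 1230, 1417 and 1706 in MG (log2 ratio -1.41, standard error 0.0795, adjusted p = 5.75e-07 from edgeR). Every FG library lay above every MG library in all 21 bins of scaffold839 and all 23 of scaffold745.

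The change was shared by most placed scaffolds of 4 chromosomes. The study's scaffold placement could be read for 188 of the tested scaffolds on 31 chromosomes. All 10 scaffolds placed on chromosome 4 and all 5 on chromosome 17 were higher in MG, where 7.13% of all tested scaffolds were. Their log2 ratios were 0.40 to 0.84 on chromosome 4 and 0.72 to 1.17 on chromosome 17. On chromosome 7, 6 of 7 scaffolds were lower in MG (log2 ratios over the 7 from -0.84 to -0.19) and on chromosome 29, 5 of 6 were (log2 ratios over the 6 from -1.41 to -0.01), where 3.79% of all tested scaffolds were. On the other 27 chromosomes 7 of 160 placed scaffolds were called. Scaffolds of 1 chromosome are not independent replicates of the sexes.

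Chromosome 29 took 0.812%, 0.835% and 0.681% of the nuclear methylated reads in FG and 0.393%, 0.393% and 0.402% in MG over its 6 placed scaffolds. Chromosome 17 took 0.332%, 0.327% and 0.319% in FG and 0.658%, 0.655% and 0.582% in MG over its 5. The libraries of the sexes did not overlap on either.

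**Figure D3:**
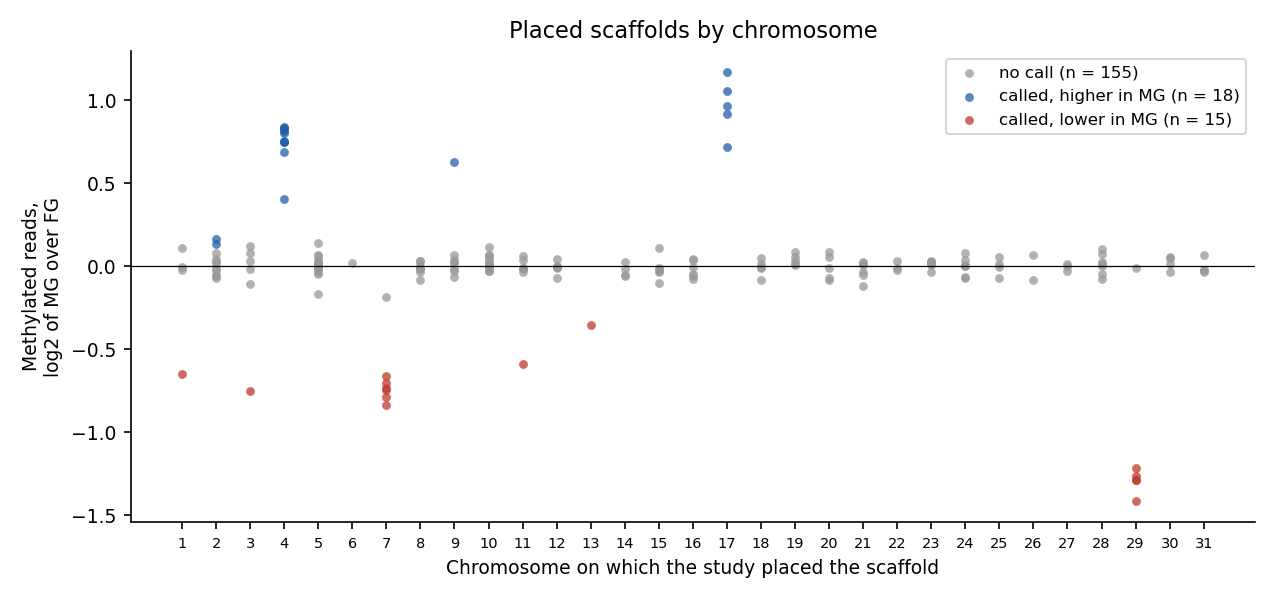
Fitted log2 ratio of MG to FG in methylated reads (y axis) of the 188 scaffolds that the study placed on a chromosome (x axis), with 1 point per scaffold. Chromosomes 4 and 17 stand above 0 and chromosomes 7 and 29 below it, and the scaffolds of most other chromosomes lie near 0, with single called scaffolds on chromosomes 1, 3, 9, 11 and 13 and 2 on chromosome 2.

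The depth of mCs differed between the sexes on many scaffolds. Coverage was taken as the mean coverage of the mCs of a scaffold over the mean of all nuclear mCs of its library, in 4456 scaffolds with at least 20 mCs in each library. It was higher in MG in 312 scaffolds (7%) and lower in 383 (8.6%) at an adjusted p below 0.05 from limma. With the median in place of the mean coverage the counts were 127 and 85. Of the 332 scaffolds with fewer reads in MG, 204 were also shallower, 0 deeper and 89 had no call, and 39 had too few mCs. Of the 624 scaffolds with more reads in MG, 240 were deeper, 69 shallower and 69 had no call, and 246 had too few mCs. The part of depth in the read differences was not tested.

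On the 4 chromosomes coverage moved largely with the reads. All 5 scaffolds of chromosome 17 were called deeper in MG (log2 ratios of coverage 0.42 to 0.52), and 9 of 10 were on chromosome 4. On chromosome 29, 5 of 6 were called shallower, and on chromosome 7, 4 of 7 were called shallower and 1 deeper.

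Male-rich scaffolds were counted by the size of the change. Among scaffolds with a log2 ratio of reads below 1, 203 of the 261 with a coverage value were deeper in MG and 9 shallower. Among those with a log2 ratio of 1 to 2, 34 of 63 were deeper and 21 shallower. Among those with a log2 ratio of 2 to 4, 0 of 40 were deeper and 30 shallower, and above 4, 3 of 14 were deeper and 9 shallower. These groups held 110, 96 and 154 scaffolds, most of the last 2 without a coverage value. Scaffolds with a value are those that kept at least 20 mCs in every FG library. On scaffold1026 the log2 ratio of coverage was -1.32 (adjusted p = 6.27e-05 from limma), where the FG mean rests on bin 14. Scaffold1304 was among the 3 deeper ones, with a coverage log2 ratio of 2.54 (adjusted p = 6.27e-05 from limma), 55.2, 58.4 and 63.9 reads in MG against 10.2, 7.82 and 11.03 in FG.

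**Figure D4:**
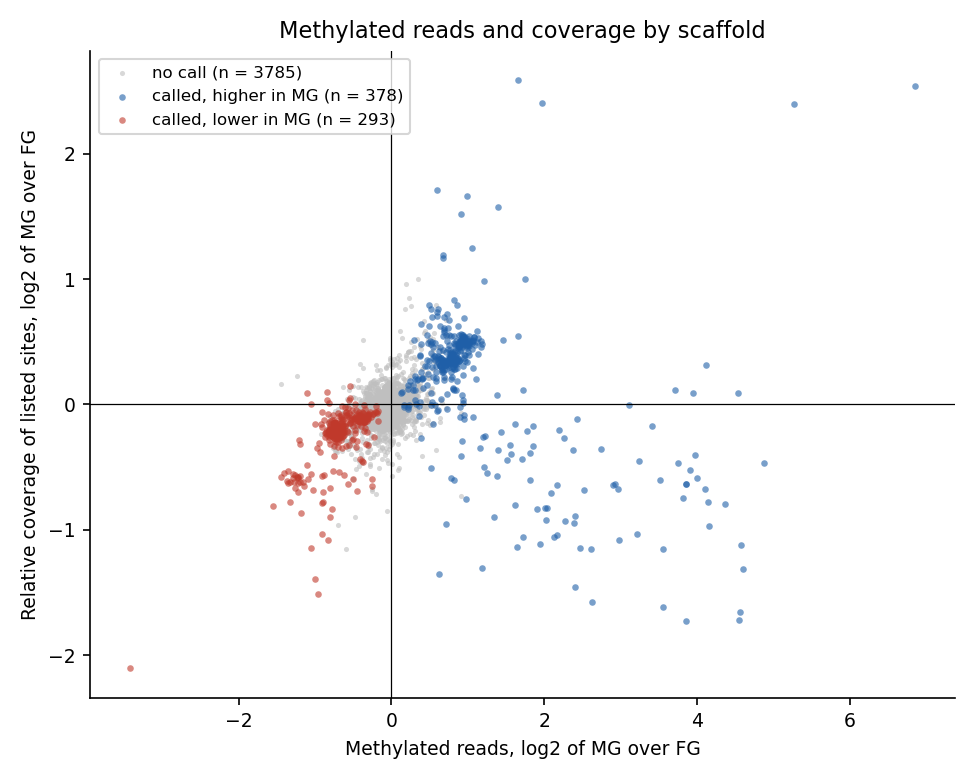
Log2 ratio of MG to FG in methylated reads (x axis) against the log2 ratio in relative coverage of mCs (y axis) for 4456 scaffolds, with calls by methylated reads in colour. Called scaffolds form separate groups at small read ratios with coverage of the same sign. Of the 96 male-rich scaffolds at read ratios of 2 to 4, 40 have a coverage value, and most of these lie below 0.

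Counts were also compared within classes of coverage, using mCs with 1 methylated read. The number of cytosines covered in each class was not available. The depth of a scaffold therefore also moves its counts between classes, and the part of depth was not tested. At 5 to 8 reads, 266 of 8181 scaffolds (3.25%) were higher and 167 (2.04%) lower in MG. At 9 to 12 reads 331 of 6877 (4.81%) were higher and 219 (3.18%) lower, and at 13 to 20 reads 256 of 5736 (4.46%) were higher and 162 (2.82%) lower, all from edgeR. With the replicate block the counts at 13 to 20 reads were 366 and 495. Calls in both directions moved with the library left out. Lower calls fell to 107 without FG replicate 1 and 103 without MG replicate 2 at 5 to 8 reads. At 9 to 12 reads they fell to 145 without FG replicate 1 and 145 without MG replicate 1, and at 13 to 20 reads to 92 without MG replicate 2. With other libraries left out they rose to at most 207, 265 and 213 in the 3 classes. Higher calls ranged from 217 to 268, from 233 to 374 and from 192 to 278.

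The classes differed between large and small changes. The groups and the scaffolds named here were chosen by methylated reads, and the mCs of each class supply part of those reads. The counts and ratios by class are therefore a description only. Of the 132 scaffolds with a log2 ratio of reads above 4 that could be tested at 5 to 8 reads, 107 were higher and 0 lower in MG in that class. Of the 264 scaffolds with a ratio below 1, 23 were higher and 57 lower at 5 to 8 reads, while 149 of the same 264 were higher and 0 lower at 13 to 20 reads. Of the 258 female-rich scaffolds with a log2 ratio above -1, 113 were lower and 0 higher at 13 to 20 reads, and 93 were lower and 5 higher at 5 to 8 reads. On scaffold745 the log2 ratio was -0.24 (adjusted p = 0.147) at 5 to 8 reads, -2.07 (adjusted p = 0.000173) at 9 to 12 and -3.98 (adjusted p = 6.16e-05 from edgeR) at 13 to 20. On scaffold120, also with fewer reads in MG over its length, the log2 ratio was 0.27 (adjusted p = 0.000232, higher in MG) at 5 to 8 reads, 0.11 (adjusted p = 0.775) at 9 to 12 and -1.59 (adjusted p = 0.0279 from edgeR) at 13 to 20. On scaffold4974, with fewer reads in MG, mCs covered by 5 to 8 reads were more numerous in MG (log2 ratio 2.91, adjusted p = 0.00042) and those covered by 13 to 20 reads fewer (log2 ratio -4.57, adjusted p = 0.00193 from edgeR). On scaffold1689 the log2 ratios were 6.51, 9.13 and 5.17 in the 3 classes, each with an adjusted p of at most 0.000684 from edgeR, and its FG libraries had so few reads that these ratios depend on the prior count of the fit.

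Scaffolds restricted to 1 sex differed in how evenly the libraries read them. A scaffold was restricted to a sex if it had 100 or more methylated reads summed over that sex and at most 3 over the other. Of 9560 nuclear scaffolds with an mC in the 6 libraries, 27 were restricted to MG and 23 to FG. The limits are read counts that were not scaled to the library totals, which were larger on average in MG. In 20 of the 27 and in all 23 the other sex had 0 reads. Of the 27, 19 had at least 10 reads in each MG library, summed to 162 kb and carried 1540, 1670 and 1779 reads in MG. In these 19 the methylated share of the reads at listed mCs was 2.26% to 12.7% in the library with most reads. Of the 23, scaffold2653 alone had at least 10 reads in each FG library, and scaffold3828 had 7 in the lowest. Scaffold3844 (14.5 kb), for example, had 130, 141 and 159 reads in MG and 0 in each FG library, and scaffold4309 (11.4 kb) had 117, 125 and 97 in MG and 0 in each FG library.

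In most of the remaining scaffolds the reads at listed mCs were almost all methylated. In 8 scaffolds restricted to MG this share was 95.7% to 100%, every read came from MG replicate 3, and the scaffolds were 298 to 4486 bases long. In 20 scaffolds restricted to FG it was 94.2% to 100%, and in 17 of them every gametophyte read came from 1 FG library. In 19 of the 20 the mean coverage was under 7 reads, the exception being scaffold7517 (2.71 kb), which held 4368 reads at a coverage of 84.1 in FG replicate 3 and 0 in the other 5 libraries. On scaffold3226 (21.4 kb), also restricted to FG, the share was 21.2%, and FG replicates 1 to 3 held 0, 156 and 3 reads. Scaffold7517 was not called (adjusted p = 0.0917 from edgeR). It was called with the replicate block, but all its reads came from 1 library, so that call has no replication within FG. The counts of restricted scaffolds fell for MG to 13 without MG replicate 3 and for FG to 15 without FG replicate 1 and 14 without FG replicate 3, and rose for MG to 41 without FG replicate 3 and for FG to 36 without MG replicate 3.

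Single mCs seldom recurred. Of 27644146 nuclear cytosines listed in any of the 6 libraries, 91.2% were listed in 1 library only and 1303 in all 6. In all 3 MG libraries and no FG library 12438 (0.0450%) were listed, and in all 3 FG libraries and no MG library 7150 (0.0259%). These counts were not scaled to the number of mCs per library, which was higher in MG in each replicate number, so they are not comparable between the sexes. Libraries of the same sex shared 3.94% to 4.89% of their mCs in MG and 2.76% to 4.66% in FG, and libraries of the other sex held 2.62% to 4.52% of the mCs of an MG library and 3.74% to 4.87% of those of an FG library. The ranges within and between the sexes overlapped. Of the 12438 sites, 29.4% lay on scaffolds with more reads in MG and 67.1% on scaffolds without a call, where 14.6% to 15.8% and 78.4% to 79.3% of all nuclear methylated reads of the MG libraries lay. Of the 7150 sites, 16% lay on scaffolds with fewer reads in MG and 75.9% on scaffolds without a call, where 8.86% to 9.91% and 81.2% to 82.8% of all nuclear methylated reads of the FG libraries lay. Sites and scaffold calls come from the same reads, so these shares are a description. Scaffold1304 held the most of the former, 236, and scaffold120 the most of the latter, 138. CpG made up 10.6% of the former and 12.01% of the latter, against 22.8% of all sites listed in any library.

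At the level of whole libraries the sexes overlapped in every measure compared. The mean number of mCs was higher in MG in each of the 3 replicate numbers, by a factor of 1.21 of the means, but the libraries overlapped (exact two-sided permutation test, p = 0.3, where 3 against 3 cannot go below 0.1). CpG made up 23.3%, 23.0% and 22.3% of mCs in FG, against 23.4%, 23.1% and 20.0004% in MG, with means of 22.8% ± 0.503 and 22.2% ± 1.89 (SD, n = 3, exact permutation test, p = 0.9). Of the mCs, 2.92%, 2.37% and 3.22% had 2 or more methylated reads in FG, against 3.09%, 2.995% and 3.80% in MG (exact permutation test, p = 0.4, n = 3). Over 30 such measures the smallest exact p was 0.2. Within replicate numbers, 14 measures were higher and 3 lower in MG in all 3 pairs, where an exact sign-flip test cannot go below p = 0.25. The measures depend on one another, and replicates 1 and 2 could not be paired by number, so these counts are a description only. The share with 2 or more methylated reads was higher in MG in all 3 pairs, and that of CpG in 2.

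Replicate 3 of both sexes stood apart in depth. In FG replicates 1 to 3, 63.7%, 67.8% and 46.7% of mCs were covered by 5 to 8 reads, against 60.6%, 58.9% and 40.9% in MG. At 13 to 20 reads lay 7.01%, 5.93% and 15.0% of the FG mCs, against 8.34%, 8.93% and 20.4% in MG. In all 3 pairs MG had the lower share at 5 to 8 reads and the higher share at 13 to 20 (exact sign-flip test, p = 0.25, the smallest possible). The context of mCs differed between coverage classes in both sexes, and the listing differed by context as well. A CpG with 1 methylated read was listed only up to a coverage of 14 to 19 reads. A CHG or CHH with 1 methylated read was listed up to 72 to 86 reads. CpG sites with 1 methylated read are therefore missing from the classes above 20 reads. At 5 to 8 reads CpG made up 23.8% to 24.4% of the mCs in FG and 23.9% to 24.6% in MG, and at 21 to 50 reads 2.14% to 2.64% in FG and 2.32% to 2.89% in MG. Over 50 reads it was higher again, 6.60% to 8.10% in FG and 7.34% to 8.80% in MG. In the class of 13 to 20 reads CpG made up 19.96%, 23.1% and 19.4% in FG, against 18.6%, 20.1% and 12.1% in MG, with MG replicate 3 the lowest of the 6 (exact permutation test of the class between the sexes, p = 0.3, n = 3). The listing limit of a CpG with 1 methylated read fell within this class, at 14 reads in MG replicate 3 and 19 in FG replicate 2.

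**Figure D5:**
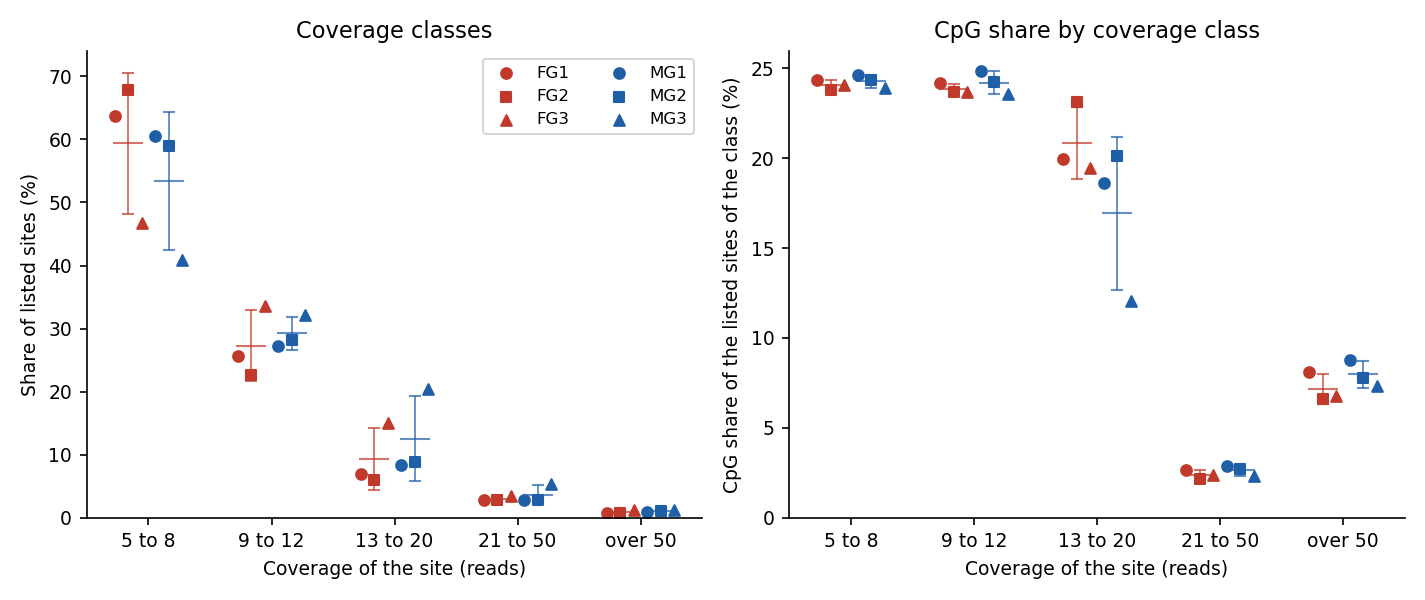
Share of mCs in each coverage class (left) and CpG share of the mCs of each class (right) for the 6 libraries, with a horizontal line for the mean and bars for the SD of 3 libraries. Replicate 3 of each sex has the lowest share at 5 to 8 reads and the highest at 13 to 20, and the CpG share is lowest at 21 to 50 reads in every library. No library lists a CpG with 1 methylated read above a coverage of 19 reads.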

How the data were processed

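Whole-genome bisulfite libraries of MG and FG were read from 1 list of mCs per library. The authors aligned the reads with Bismark, version 0.16.1, and called mCs. The deposited counts are the methylated and unmethylated reads of each listed cytosine, not normalized, and the deposited fraction is the first over their sum. The authors' p-value of each site entered no count or test here. Every listed site has at least 5 reads and 1 methylated read, and the number of sites and mean coverage give the depth of each library. The organellar rows were left out.

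Methylated reads were summed per scaffold. Scaffolds with at least 10 reads were tested with edgeR 4.0.16 (quasi-likelihood, library size the nuclear methylated reads, R 4.3.3), the sites with 1 methylated read within classes of coverage likewise, and mean relative coverage with limma 3.58.1 in scaffolds with at least 20 mCs per library, all with Benjamini-Hochberg adjustment. Libraries were compared with exact permutation tests in scipy 1.17.1. The fits were tested on simulated data. Same-numbered libraries deviated together in reads per scaffold (correlations 0.47, 0.37 and 0.65), so the replicate block was also fitted. FG replicate 1 with MG replicate 2 gave 0.31, and FG replicate 2 with MG replicate 1 gave 0.42. Replicates 1 and 2 were therefore not told apart by number. In coverage relative to the library mean the same-numbered correlations were 0.10, 0.28 and 0.40.

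Named scaffolds are, in each direction, the 10 with the largest change among those called, without overlap and with at least 500 reads, the 5 with the smallest adjusted p among those with at least 5000 reads, and up to 5 longest scaffolds restricted to a sex. Not all are printed. The stretches of scaffold1304, scaffold1026 and scaffold120 were chosen after their values were seen. Chromosomes come from the study's placement of scaffolds that carry tRNA genes, and 98 tested scaffolds on the artificial chromosome 0 were not counted. The mapped reads used as another library size come from the study. Fold bounds use a floor of 3 reads over the 3 libraries and cover counting error only. Alternatives were TMM scaling, DESeq2 1.42.0, limma with a pseudocount of 1, other filters, contexts and library sizes, and leaving out libraries. The members, rules and lists were chosen with earlier results of these data known. Scripts used Python 3.11.15.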

Additional observations from a re-analysis of the deposited data

Results flagged for a closer look

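The sporophyte libraries, which no comparison above uses, had methylated reads on the 19 scaffolds restricted to MG with at least 10 reads in each MG library. There were 121 reads in sporophyte (SP) replicate 1, 53 in replicate 2 and 63 in replicate 3, above the 3 reads that a count of 0 allows, where the MG libraries had 1540, 1670 and 1779 and the FG libraries 1, 1 and 12. The SP libraries held 1787624, 694551 and 803572 nuclear methylated reads in all, fewer than any gametophyte library.

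On scaffold2653, restricted to FG, SP replicate 3 had 4 methylated reads, above the same limit, and SP replicates 1 and 2 had 2 and 0.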

How the results depend on the processing

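Of 728 values of the 35 named scaffolds under 21 alternatives of the scaffold fit, 706 stayed on the same side of the threshold, 6 lost the call (scaffold2653, scaffold2884, scaffold2346 and scaffold569 with at least 2 methylated reads per site, and scaffold120 and scaffold4974 from CpG alone), 16 gained it and 0 changed direction. The gains were scaffold3226, scaffold6961 and scaffold7517, each read almost wholly in 1 FG library. The counts of scaffolds higher and lower in MG moved beyond 1.5 times to 304 and 74 with at least 2 methylated reads per site, to 347 and 184 from CpG alone, and for lower calls to 193 with mapped reads as library size. Of the 624 higher calls, 278 were kept with at least 2 methylated reads, 344 from CpG alone and 606 with mapped reads as library size. Of the 332 lower calls, 42 were kept with at least 2 methylated reads, 181 from CpG alone and 167 with mapped reads. Without FG replicate 3 and MG replicate 3 the counts were 579 and 450.

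The replicate block moved the lower calls to 508, and at 13 to 20 reads to 495, and changed no direction. Coverage calls moved to 127 and 85 with the median coverage. Leaving out 1 library gave 526 to 585 higher and 276 to 408 lower calls. It gave 103 to 207 lower calls at 5 to 8 reads, 145 to 265 at 9 to 12 and 92 to 213 at 13 to 20.

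Scaffolds restricted to MG numbered 95 with at least 30 reads and 13 to 41 with 1 library left out. Those restricted to FG numbered 1 with at least 10 reads in each library and 14 to 36 with 1 library left out. Both added settings were chosen after seeing the data. Sites of 1 sex numbered 597 for MG (0.0672%) and 164 for FG (0.0185%) among the sites with at least 2 methylated reads.

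With at least 2 methylated reads per site the difference of MG minus FG reversed for methylated reads, to -16199, for the CpG share, to 0.472 percentage points, and for the CHH share, to -0.567. With 1 library left out it ranged from -1.27 to 0.432 points for CpG, from -0.613 to 0.951 for CHH, from -12.3 to 0.350 for the class of 5 to 8 reads, from -0.358 to 5.09 for 9 to 12, from -0.688 to 6.07 for 13 to 20 and from -0.217 to 1.08 for 21 to 50. The causes were not tested. Depth limits single sites, since a site unlisted in a library may be uncovered there.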

Other observations

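Of the 20 scaffolds restricted to FG whose reads at listed mCs were at least 90% methylated, 15 also held methylated reads in SP replicate 1, from 33 to 3345 reads, and none in SP replicates 2 and 3. The 8 scaffolds of this kind restricted to MG held no read in any SP library.

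Of the 1303 sites listed in all 6 gametophyte libraries, 331 lay on scaffold2915, 138 on scaffold2425 and 119 on scaffold4809, and CpG made up 5.07% of the 1303. On scaffolds without a call between the sexes lay 96.5% of them, where 78.4% to 82.8% of the nuclear methylated reads of the libraries lay.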
